A study of Mus musculus with 6 samples.

Results

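The 10 genes described here encode the subunits of the transcription factor NF-kB and proteins that restrain it. They were taken by symbol from a table of read counts for 31017 genes: the 5 REL-family subunits Nfkb1, Nfkb2, Rel, Rela and Relb, the 4 I-kappa-B genes Nfkbia, Nfkbib, Nfkbie and Nfkbiz, and Tnfaip3. All 10 were listed and all 10 passed the filter on low counts, as did 14268 genes in all. RNA had been sequenced from mouse Th17 cells, a helper T cell class that secretes inflammatory cytokines, after differentiation in vitro. There were 3 control libraries (genotype WT) and 3 libraries from RTF1-deficient cells (genotype KO). RTF1 is a nuclear factor that travels with RNA polymerase II and promotes ubiquitination of histone H2B, and the study asked what its loss does to Th17 cells. The labels give the genotypes only as WT and KO, with no strain, age, allele or deleting enzyme, and do not say whether the libraries of a group came from separate animals or cultures. The p-values below therefore measure the spread between these libraries, which may be technical in part.

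Total counts per library ran from 16489813 to 51271226. Rtf1 itself ran from 88.3 to 94.0 CPM (counts scaled to library size) in the 3 control libraries and from 26.2 to 45.3 CPM in the KO libraries, so the labels matched the targeted gene, part of whose transcript remained. The cell type was checked by the summed level of 8 Th17 markers, which was 2274 to 2875 CPM in control and 748 to 1494 CPM in KO, with 5 of the 8 called lower and 1 higher. How far the members' levels follow the Th17 state of the cultures was not tested. Y-linked genes had 11376 and 5147 counts in the third library of control and KO, against 1 to 3 elsewhere. The third library of each group thus held male cells and came from another source than the other libraries of its group. Whether those others had separate sources is not known. Of the marker lists for other cells, the summed level of 8 B cell genes was 8.33 to 12.4 CPM in control and 6.64 to 7.24 CPM in KO. That of 10 myeloid genes was 3.43 to 6.01 CPM and 25.2 to 34.8 CPM, and that of 8 CD8 and NK cell genes 11.6 to 16.6 CPM and 25.9 to 33.1 CPM. Of the myeloid genes, 5 were tested and 3 of them rose: Cd68 from a mean of 3.19 to 20.0 CPM, Mpeg1 from 0.134 to 5.71 CPM and Csf1r from 0.361 to 1.18 CPM (edgeR adjusted p = 0.00079, 0.000194 and 0.0256). Cd68 alone made up 13.3 to 25.3 CPM of the sum in the KO libraries. Cd14 (0.302 and 0.821 CPM) and Fcgr3 were not called (edgeR adjusted p = 0.0646 and 0.0536). Fcgr3 went the other way, from 0.545 to 0.211 CPM, with all KO libraries below all control libraries. Lyz2, which was not tested, was at 0 to 0.095 CPM in control and 0.294 to 1.75 CPM in KO, and Itgam and Adgre1 stayed at or under 0.134 CPM in each library. Of the CD8 and NK cell genes, 6 were tested and 2 rose, Prf1 from 0.328 to 12.1 CPM and Eomes from 0.0991 to 1.55 CPM (edgeR adjusted p = 7.7e-05 and 0.000946), while Ncr1 and Klrb1c had 0 counts in all 6 libraries. Prf1 alone made up 8.96 to 16.1 CPM of the sum in the KO libraries. Cd8a, Klrd1 and Klrk1 had higher means in KO and Cd8b1 a lower mean (7.91 and 6.42 CPM), and none of these was called. The part of these differences in the members' levels was not tested. In RNA from bulk cultures, fewer cells that express a gene and less RNA of it per cell cannot be told apart.

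NF-kB acts as a dimer of REL-family proteins. RELA, c-REL (the product of Rel) and RELB carry a transactivation domain, whereas Nfkb1 and Nfkb2 encode long precursors that are processed to shorter DNA-binding partners without such a domain. In resting cells the I-kappa-B proteins hold dimers in the cytoplasm. Signals from the T cell receptor, from costimulatory and TNF-family receptors and from the interleukin 1 receptor family activate a kinase complex that marks the I-kappa-B proteins for destruction, and the freed dimers enter the nucleus and bind kB sites in DNA. Several genes of the system, among them Nfkbia and Tnfaip3, are known targets of NF-kB and close feedback loops. In Th17 cells the nuclear inhibitor encoded by Nfkbiz is known for promoting the Th17 program.

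Because several of these genes are known targets of NF-kB, the 250 bases before each annotated start were searched for the kB consensus on both strands. RefSeq promoter entries (GRCm38.p6) matched 7 of the 10 symbols, all but Nfkb1, Relb and Nfkbiz. A match lay before a start of 5 of these 7 genes (Rel, Nfkb2, Nfkbia, Nfkbie and Tnfaip3) and before none of Rela and Nfkbib, where 8.23% of 27025 genes and 7.25% of 32851 promoter entries held one. The shares were not matched for GC content, which lay between 46.4% and 77.6% in the members' entries. The windows below, 5′ to 3′ on the strand of the gene with matches in capitals, are those that held no base of the gene's annotated exons. Windows that touched an exon are not shown. Among them is a Tnfaip3 window with 3 exonic bases in its flank and a match 125 bases before the start.
Rel, chr11:23771036-23771076, minus strand, 92 bases before the start, 2 overlapping matches: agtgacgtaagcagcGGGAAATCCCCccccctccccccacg
Nfkbia, chr12:55492652-55492691, minus strand, 29 bases before the start: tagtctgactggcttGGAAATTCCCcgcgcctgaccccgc
Tnfaip3, chr10:19015411-19015437, minus strand, 12 bases before the start: actggaatttccatcGGAAATCCCCct
Nfkbie, chr17:45555579-45555618, plus strand, 106 bases before the start: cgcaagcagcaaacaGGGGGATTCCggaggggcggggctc
Nfkb2, chr19:46305445-46305483, plus strand, 236 bases before another annotated start: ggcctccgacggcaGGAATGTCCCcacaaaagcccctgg
A match describes the letters of the window and is not evidence of binding. Among these 5 genes, only Rel was called different between the groups, where 46.1% of all genes tested were. Rela, which has no match in its window, was called as well. The other called members, Nfkb1, Relb and Nfkbiz, had no promoter entry, so matches and calls cannot be compared over the members.

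Across the 10 members, 3 were higher in KO (Rel, Rela and Nfkbiz), 2 were lower (Nfkb1 and Relb) and 5 were not called, at an adjusted p under 0.05 in edgeR's quasi-likelihood test over all genes. That is 50% of the members, beside 46.1% of the 14268 genes tested, of which 23.2% were higher and 22.9% lower. The median log2 fold change (KO over control throughout) was −0.05 over the members and 0.01 over all genes. In 5 of the 10 members, the same 5, the KO libraries all lay on one side of the control libraries, beside 57.9% of all genes. The members thus changed about as often as genes at large, and in both directions. When counts were scaled by library size alone, the split was 3 higher and 0 lower.

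**Figure D1:**
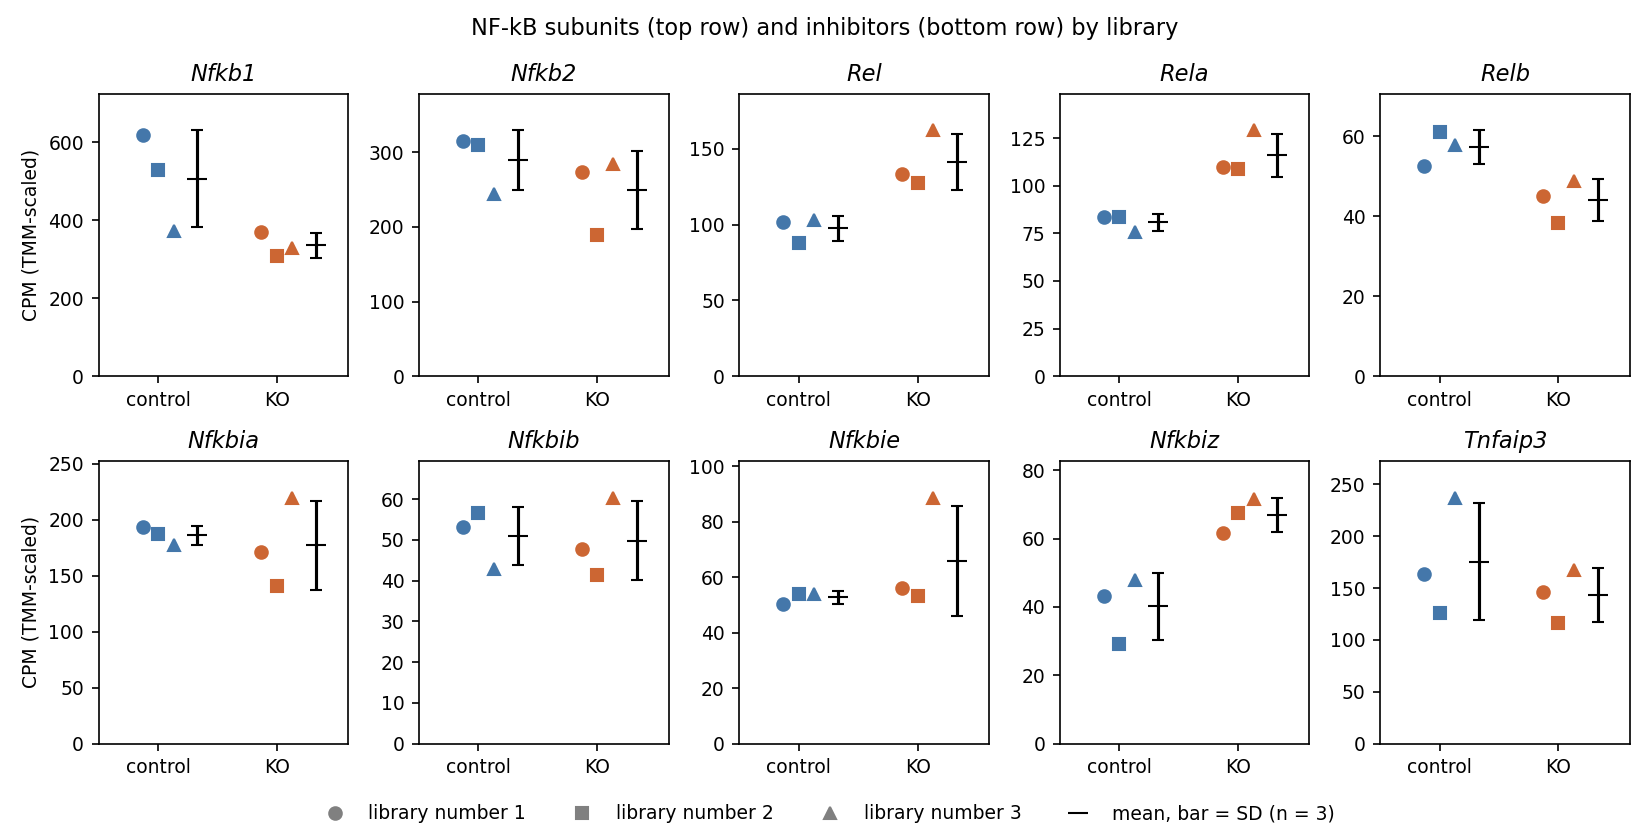
Level of each of the 10 members (TMM-scaled CPM, axes from 0) in each of the 3 control and 3 KO libraries. Symbols mark the library number, and the black bar is the mean with the SD (n = 3). Rel, Rela and Nfkbiz lie above every control library in KO, Nfkb1 and Relb below, and the other 5 overlap.

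Among the subunits that carry a transactivation domain, Rela and Rel rose and Relb fell. Rela (ENSMUSG00000024927.8, chr19:5637483-5648130, GRCm38, plus strand) encodes the main transactivating partner of the canonical pathway. Its level was 83.3, 83.5 and 75.7 CPM in control replicates 1, 2 and 3 and 109.9, 108.7 and 129 CPM in KO replicates 1, 2 and 3. Every KO library was thus well above the highest control library. The means were 80.9 ± 4.44 and 115.8 ± 11.4 CPM (SD, n = 3), which differ by a log2 fold change of 0.52 (adjusted p = 0.0061 by edgeR, SE 0.113), or 143% of the control level.

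Rel (ENSMUSG00000020275.9, chr11:23736847-23770970, minus strand) encodes c-REL, a subunit largely restricted to blood cells and induced when T cells are activated. It was at 102, 88.1 and 102.7 CPM in the control libraries and 133, 128 and 162 CPM in the KO libraries. As for Rela, KO replicate 3 was the highest of all. The means were 97.6 ± 8.23 and 141 ± 18.5 CPM (SD, n = 3; log2 fold change 0.53, adjusted p = 0.00985 by edgeR, SE 0.129). Because their groups did not overlap, any pairing of libraries has KO higher for Rel and Rela. In the 3 pairs of equally numbered libraries the differences were 0.39 to 0.66 and 0.38 to 0.77 on the log2 scale.

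Relb (ENSMUSG00000002983.17, chr7:19606217-19629438, minus strand) encodes the transactivating subunit of the noncanonical pathway. Its control libraries held 52.6, 61.1 and 57.9 CPM and its KO libraries 45.0, 38.3 and 48.8 CPM. The gap between the lowest control and the highest KO library was small. The means were 57.2 ± 4.26 and 44.0 ± 5.32 CPM (SD, n = 3; log2 fold change −0.38, adjusted p = 0.0395 by edgeR, SE 0.130), or 76.9% of control. This call was lost without control replicate 2 (adjusted p = 0.1), KO replicate 1 (0.0709) or KO replicate 2 (0.165), and under scaling by library size alone (0.0823).

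Of the genes for the precursor subunits, Nfkb1 fell and Nfkb2 was not called. Nfkb1 (ENSMUSG00000028163.17, chr3:135584655-135691547, minus strand), which encodes the usual dimer partner of RELA and c-REL, had the most counts of the 10 members in each library. It stood at 618, 527 and 373 CPM in control and 369, 308 and 329 CPM in KO. The groups did not overlap, but control replicate 3 was barely above KO replicate 1, and the control libraries varied widely. The means were 506 ± 124 and 335 ± 31.2 CPM (SD, n = 3; log2 fold change −0.59, adjusted p = 0.0278 by edgeR, SE 0.185), or 66.2% of control. In the pairs of equally numbered libraries the log2 differences were −0.74, −0.78 and −0.18. Leaving out 1 library ended the call in 4 cases of 6, those without control replicate 1 (adjusted p = 0.0884), control replicate 2 (0.0679), KO replicate 2 (0.109) or KO replicate 3 (0.0777), and under scaling by library size alone (0.0509).

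Nfkb2 (ENSMUSG00000025225.15, chr19:46304320-46312385, plus strand) encodes the precursor that both restrains and partners RELB in the noncanonical pathway. The control libraries held 315, 310.2 and 244 CPM and the KO libraries 274, 189.7 and 285 CPM, with replicate 3 of control and replicate 2 of KO the low ones. The groups overlapped (289.7 ± 39.8 and 249.6 ± 52.1 CPM, SD, n = 3), and the log2 fold change of −0.22 (SE 0.178) was not called (edgeR adjusted p = 0.348). With 1 library left out it ranged from −0.05 without KO replicate 2 to −0.38 without control replicate 3. The antisense gene Psd and another antisense model overlap 18.1% of its exonic bases, and the strand setting of the counting is not given in the sources used here, so its level is uncertain to that extent.

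**Figure D2:**
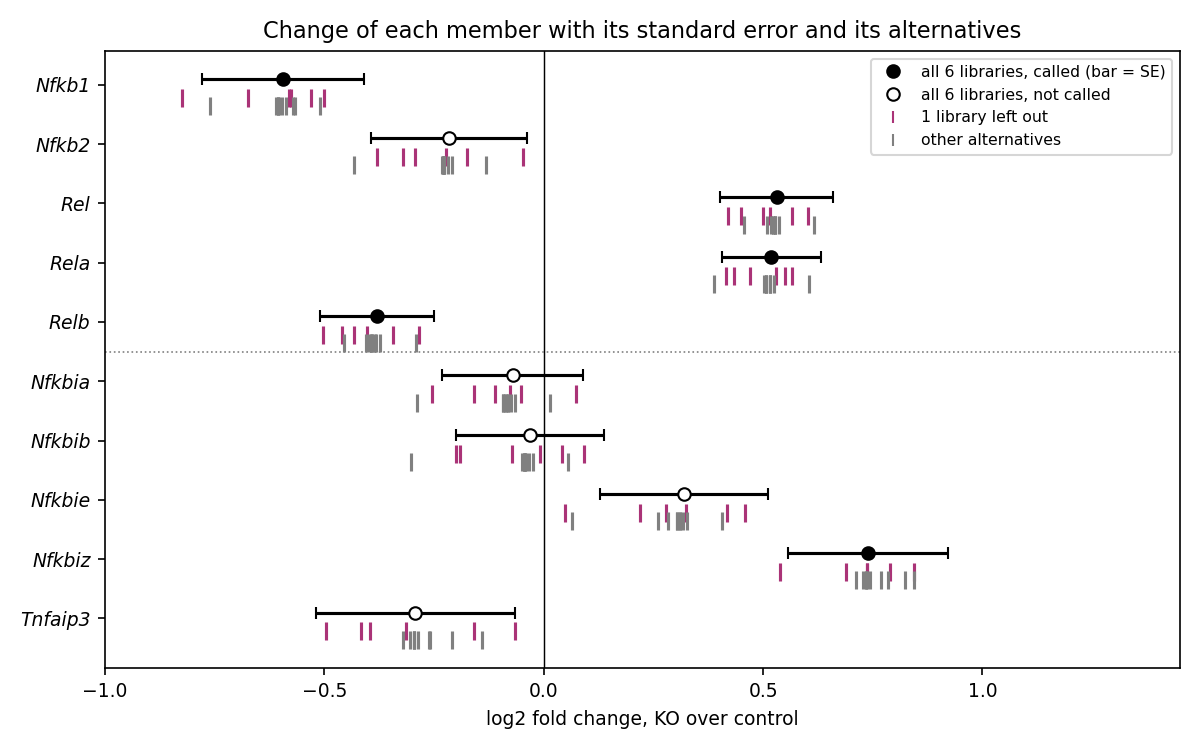
Log2 fold change (KO over control) of each member with its standard error (circles, filled where called) and, below each, the values with 1 library left out (6 marks) and under the other 10 alternatives. All marks of Rel, Rela and Nfkbiz lie to the right of 0 and all marks of Nfkb1 and Relb to the left, while those of Nfkbia and Nfkbib lie on both sides.

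To compare subunits with one another, CPM values were divided by the length of the longest principal transcript in GENCODE M21, giving CPM per kb. On this scale the 5 subunits summed to 284 ± 42.8 in control and 242 ± 28.6 in KO (SD, n = 3), overlapping between the groups. The make-up of that sum differed. Rela took 9.63%, 10.3% and 11.8% of it in the control libraries and 15.8%, 19.1% and 18.1% in the KO libraries, and the share of Rel went from 4.69% ± 0.993 to 7.81% ± 0.724 (SD, n = 3). The share of Nfkb1 went from 42.9% ± 4.38 to 33.8% ± 2.80, and none of these 3 shares overlapped between the groups. Nfkb2 had a mean share of 32.5% in both groups, and the shares of Nfkb2 and of Relb overlapped between the groups, the latter at 9.30% ± 1.81 and 8.22% ± 0.237.

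The ratio of Rela to Nfkb1 on the per-length scale was 0.204, 0.240 and 0.308 in control and 0.451, 0.535 and 0.594 in KO, a 2.10-fold higher mean. The ratio of Rel to Nfkb1 was 2.09-fold higher and that of Rela to Relb 1.86-fold higher, again with no overlap, while that of Relb to Nfkb2 overlapped (0.285 ± 0.0503 and 0.255 ± 0.0285, SD, n = 3). These folds do not depend on the lengths used. The shares do, most of all for Nfkb1: with the union of all annotated exons as the length, a choice made after seeing the data, it took 26.1% in control and 18.6% in KO, and Rela 16.6% and 25.2%. With that length Nfkb2 took 39.6% in control and 35.99% in KO and Relb 9.36% and 7.55%, and for both the KO libraries then all lay below the control libraries. No test was made of these sums, shares and ratios, which combine genes described one by one above.

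**Figure D3:**
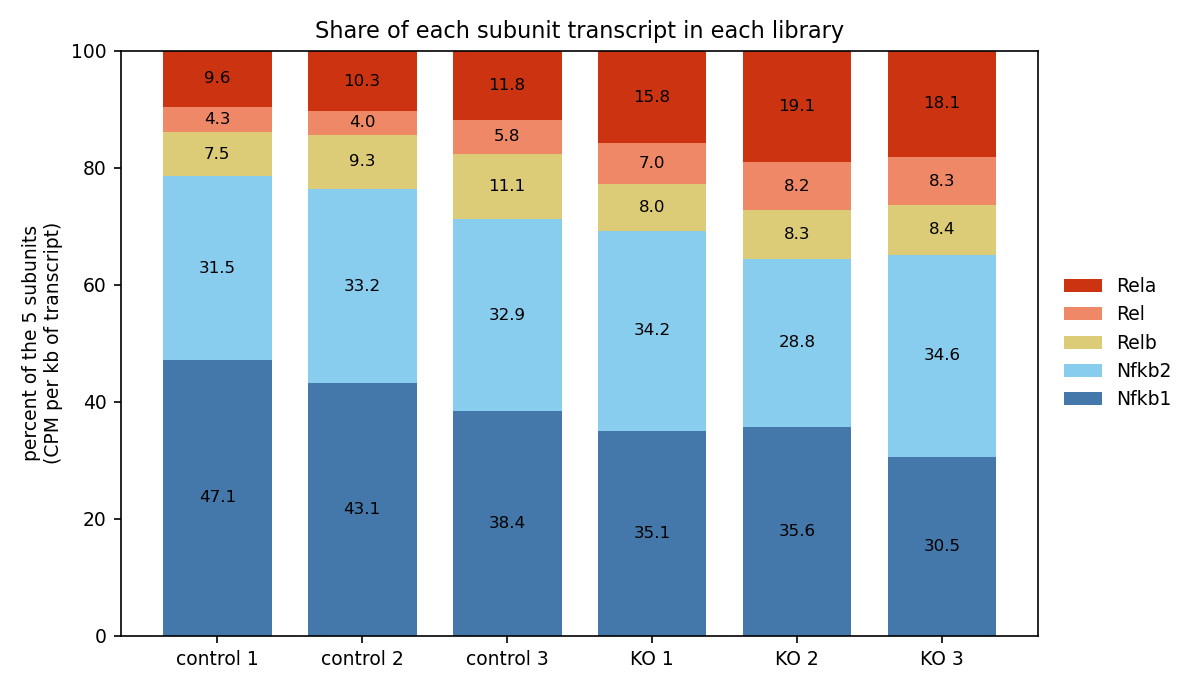
Share of each of the 5 subunit transcripts in their summed level (CPM per kb of the longest principal transcript) in each library, in percent. Rela takes 9.63% to 11.8% in control and 15.8% to 19.1% in KO, and Nfkb1 takes 38.4% to 47.1% in control and 30.5% to 35.6% in KO.

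Of the 5 inhibitors, Nfkbiz rose and the other 4 were not called. Nfkbiz (ENSMUSG00000035356.17, chr16:55811375-55838899, minus strand) encodes an atypical nuclear I-kappa-B that binds NF-kB on chromatin and is known as a coactivator of some of its targets. Its level was 43.2, 29.2 and 48.0 CPM in the control libraries, by number, against 61.7, 67.4 and 71.6 CPM in the KO libraries. All KO libraries were above all control libraries, and control replicate 2 was the low one. The means were 40.1 ± 9.78 and 66.9 ± 4.98 CPM (SD, n = 3), which differ by a log2 fold change of 0.74 (adjusted p = 0.0104 by edgeR, SE 0.182), or 167% of control. Without control replicate 2 the fold change was 0.54 and stayed called (adjusted p = 0.0152).

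Nfkbia, Nfkbib and Nfkbie encode the classical inhibitors that keep dimers in the cytoplasm. Nfkbia (ENSMUSG00000021025.8, chr12:55489410-55492647, minus strand), the fast feedback inhibitor, was at 193, 187 and 177 CPM in control and 171, 141 and 219.5 CPM in KO. The KO libraries thus spread on both sides of the narrow control range (185.9 ± 8.07 and 177 ± 39.7 CPM, SD, n = 3; log2 fold change −0.07, adjusted p = 0.742 by edgeR, SE 0.161). Its sign turned without KO replicate 2 (0.07) and under scaling by library size alone (0.01).

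Nfkbib (ENSMUSG00000030595.15, chr7:28758251-28767512, minus strand), whose product is degraded more slowly, was at 53.1, 56.6 and 42.9 CPM in control and 47.8, 41.4 and 60.3 CPM in KO. The groups overlapped, with means of 50.9 ± 7.13 and 49.8 ± 9.61 CPM (SD, n = 3; log2 fold change −0.03, adjusted p = 0.892 by edgeR, SE 0.168). Its sign turned under 3 alternatives given in the closing section, and the antisense genes Sirt2 and Ccer2 overlap 16.4% of its exonic bases.

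Nfkbie (ENSMUSG00000023947.8, chr17:45555703-45563169, plus strand), the third of these inhibitors, was at 50.2, 53.9 and 54.0 CPM in control and 56.0, 53.1 and 88.7 CPM in KO. KO replicate 3 alone stood apart from the other 5 libraries. The log2 fold change of 0.32 (adjusted p = 0.198 by edgeR, SE 0.191) was only 0.05 (adjusted p = 0.798) without that library. Summed on the per-length scale, the 3 classical inhibitors held 164 ± 7.66 CPM per kb in control and 163 ± 37.6 in KO (SD, n = 3).

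Tnfaip3 (ENSMUSG00000019850.11, chr10:19000910-19015657, minus strand) encodes a ubiquitin-editing enzyme that shuts off signalling upstream of the kinase complex. Its control libraries ran widely, 163, 126 and 237 CPM, and its KO libraries held 147, 116 and 167 CPM. The groups overlapped (175 ± 56.3 and 143 ± 25.6 CPM, SD, n = 3). The log2 fold change of −0.29 (SE 0.227) was not called (edgeR adjusted p = 0.317), although KO was lower in each of the 3 pairs of equal number (log2 differences −0.16, −0.12 and −0.50). It was −0.07 without control replicate 3, the highest library.

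The library with the lowest and the highest level was noted for each member. KO replicate 2 held the lowest level of all 6 libraries for 6 of the 10 members (Nfkb1, Nfkb2, Relb, Nfkbia, Nfkbib and Tnfaip3), and KO replicate 3 the highest for 6 (Rel, Rela, Nfkbia, Nfkbib, Nfkbie and Nfkbiz). KO replicate 1 held neither extreme for any member. These counts were not set beside those of all genes tested, so they may be usual for these libraries. For the 5 called members, the group that held each extreme was fixed by the separation of the groups. The libraries numbered 3 carried the Y-linked counts given above. With the libraries numbered 1 and 2 alone, 2 against 2, the same 5 members were called (edgeR adjusted p = 0.00361 to 0.0281). Nfkb2, Nfkbia and Nfkbib then had log2 fold changes of −0.43, −0.29 and −0.30 (adjusted p = 0.071, 0.125 and 0.101).

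In order of level per kb of the longest principal transcript, control libraries held most of Nfkb1 (122.9 ± 30.1 CPM per kb), Nfkbia (118 ± 5.12) and Nfkb2 (92.2 ± 12.7). Then came Tnfaip3 (39.7 ± 12.7), Rela (29.8 ± 1.63), Relb (25.9 ± 1.93), Nfkbib (24.7 ± 3.46), Nfkbie (21.7 ± 0.892), Rel (13.1 ± 1.10) and Nfkbiz (9.75 ± 2.38; SD, n = 3 for each). The neighbours Nfkb1 and Nfkbia, Tnfaip3 and Rela, Relb and Nfkbib, and Nfkbib and Nfkbie overlapped between their libraries. In KO the order was Nfkbia (112 ± 25.2), Nfkb1 (81.4 ± 7.58), Nfkb2 (79.5 ± 16.6), Rela (42.7 ± 4.21), Tnfaip3 (32.4 ± 5.79), Nfkbie (27.1 ± 8.10), Nfkbib (24.2 ± 4.66), Relb (19.9 ± 2.41), Rel (18.9 ± 2.48) and Nfkbiz (16.3 ± 1.21). There only the steps from Nfkb2 to Rela and from Rela to Tnfaip3 separated all libraries. The places depend on the length chosen. Per kb of the union of exons, the 3 highest in control were Nfkbia (115 ± 5.01), Nfkb2 (63.2 ± 8.68) and Nfkb1 (42.0 ± 10.3), and in KO Nfkbia (109.98 ± 24.7), Nfkb2 (54.4 ± 11.4) and Rela (37.7 ± 3.72; SD, n = 3 for each). Rela was one place higher in KO than in control by either length, and Relb 2 places lower.

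The other genes of the pathway were grouped by role in 7 lists of 154 genes in all besides the members, of which 147 were tested. Of these 53 were higher in KO (36.1%, beside 23.2% of all genes) and 27 lower (18.4%, beside 22.9%), and the median log2 fold change was 0.27 over these genes and 0.01 over all genes tested. Some genes stand in more than 1 list. In the next paragraphs the shares of a list called higher and lower are to be read beside the 23.2% and 22.9% of all genes. Each gene's values there are its mean CPM ± SD (n = 3) in control and in KO, then its log2 fold change.

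Of 14 tested ligand genes, 4 were higher and 4 lower (28.6% each). Tnfsf4, the gene of OX40 ligand, rose from 2.43 ± 0.209 to 15.4 ± 6.52 CPM (log2 2.65, edgeR adjusted p = 0.000452, SE 0.312). Tnfsf8, the gene of CD30 ligand, fell from 91.7 ± 32.7 to 20.96 ± 12.96 CPM (log2 −2.14, adjusted p = 0.00351, SE 0.413). Ltb, a subunit of the lymphotoxin that signals through the noncanonical pathway and itself a textbook target, fell from 91.0 ± 27.9 to 27.4 ± 3.31 CPM (log2 −1.74, adjusted p = 0.000527, SE 0.212).

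Of 24 tested receptor genes, 12 were higher and 4 lower (50% and 16.7%), with a median log2 fold change of 0.57. Il18rap, a chain of the interleukin 18 receptor, rose from 2.41 ± 0.894 to 44.8 ± 9.38 CPM (log2 4.27, edgeR adjusted p = 6.8e-05, SE 0.295), and Cd40, best known from B cells and myeloid cells, from 2.13 ± 1.22 to 19.4 ± 7.26 CPM (log2 3.16, adjusted p = 0.000932, SE 0.447). Of the marker sums given above, those of myeloid and of CD8 and NK cell genes were higher in KO and that of B cell genes lower. The part of such differences in the increases of Il18rap and Cd40 was not tested. Tnfrsf4, which encodes the costimulatory receptor OX40, fell from 473 ± 24.2 to 143 ± 13.3 CPM (log2 −1.72, adjusted p = 7.0e-05, SE 0.122). Cd27 fell from 14.9 ± 2.91 to 7.15 ± 0.459 CPM (log2 −1.06, adjusted p = 0.00266, SE 0.192). The receptor OX40 and its ligand thus changed in opposite directions.

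Of 26 adaptor and ubiquitin ligase genes, 9 were higher and 4 lower (34.6% and 15.4%). Ripk1, a kinase and scaffold at TNF receptors, rose from 69.1 ± 11.6 to 163.9 ± 10.5 CPM (log2 1.25, edgeR adjusted p = 0.000369, SE 0.139), and Myd88, the adaptor of Toll-like and interleukin 1 receptors, from 41.0 ± 8.12 to 96.3 ± 9.76 CPM (log2 1.23, adjusted p = 0.000688, SE 0.162). Other annotated genes overlap 9.01% and 11.3% of their exonic bases. Such overlap was 11.9% for Commd1, 9.84% for Nkiras2 and 5.15% for Ikbkg, which are named below. For Cd27, Usp18, Irf1 and Ep300 it was 5.54%, 4.44%, 3.395% and 0.378%. Malt1 and Prkcq, which link the T cell receptor to the kinase complex, fell from 839 ± 100.1 to 538 ± 15.6 CPM (log2 −0.64, adjusted p = 0.00418, SE 0.129) and from 122 ± 16.2 to 80.6 ± 3.98 CPM (log2 −0.60, adjusted p = 0.00481, SE 0.123).

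Of 18 kinase and I-kappa-B degradation genes, 5 were higher and 2 lower (27.8% and 11.1%). Ikbkg, the regulatory subunit of the kinase complex, rose from 59.5 ± 9.77 to 105.6 ± 15.99 CPM (log2 0.83, edgeR adjusted p = 0.00343, SE 0.159), and Tbk1, a related kinase, from 51.5 ± 1.20 to 82.3 ± 7.66 CPM (log2 0.68, adjusted p = 0.00178, SE 0.111). Tab1 fell from 15.97 ± 1.84 to 10.5 ± 0.835 CPM (log2 −0.60, adjusted p = 0.0151, SE 0.162). Its call was lost without KO replicate 2 (adjusted p = 0.0516) or KO replicate 3 (0.0563), and with the libraries numbered 1 and 2 alone (0.0735). Csnk2a1 was lower too (−0.46, adjusted p = 0.0103), a call lost with the libraries numbered 1 and 2 alone (0.0541), and is uncertain because other genes' transcripts, pseudogenes among them, hold 32.5% of the 50-base stretches of its own.

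Of 13 genes for other I-kappa-B proteins and nuclear cofactors, 3 were higher and 3 lower (23.1% each). Nfkbid, an atypical nuclear I-kappa-B like the product of Nfkbiz, went the other way from it: the control libraries held 78.4, 84.9 and 51.4 CPM and the KO libraries 52.7, 38.2 and 38.2 CPM (log2 −0.73, edgeR adjusted p = 0.0192, SE 0.208). Control replicate 3 lay just below KO replicate 1, and the call was lost without control replicate 1 (adjusted p = 0.0564), control replicate 2 (0.0689), KO replicate 2 (0.0792) or KO replicate 3 (0.0649). Commd1, a negative regulator of RELA, fell from 23.7 ± 4.64 to 14.4 ± 1.84 CPM (log2 −0.72, adjusted p = 0.0121, SE 0.182). Without KO replicate 2 its adjusted p was 0.0506. Nkiras2, which encodes a Ras-like protein that binds I-kappa-B, rose from 34.9 ± 2.90 to 58.9 ± 5.61 CPM (log2 0.76, adjusted p = 0.00191, SE 0.126). Ep300, a coactivator, was higher by 0.38 (adjusted p = 0.0417), a call lost under 7 of the 16 alternatives.

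Of 18 genes besides Tnfaip3 listed as brakes on the pathway, mostly through ubiquitin, or as linked to such brakes, 8 were higher and 3 lower (44.4% and 16.7%). Usp18, also a well-known interferon response gene, rose from 13.7 ± 4.71 to 49.2 ± 15.1 CPM (log2 1.86, edgeR adjusted p = 0.00167, SE 0.301), and N4bp1 from 49.99 ± 7.41 to 113 ± 11.7 CPM (log2 1.18, adjusted p = 0.000483, SE 0.142). Tnip3, which encodes a partner of TNFAIP3, fell from 16.6 ± 4.32 to 2.61 ± 2.22 CPM (log2 −2.72, adjusted p = 0.00449, SE 0.554). Sigirr, a decoy-like receptor of the interleukin 1 family, fell from 85.5 ± 11.9 to 50.4 ± 3.001 CPM (log2 −0.76, adjusted p = 0.00197, SE 0.129).

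Of 44 tested textbook target genes, 12 were higher and 12 lower (27.3% each, beside 23.2% and 22.9% of all genes). The median log2 fold change of the list was 0.31. Calls in both directions were equal in number, as they nearly were among all genes. Irf1, a transcription factor that interferon also induces, rose from 34.5 ± 6.28 to 196.7 ± 37.4 CPM (log2 2.51, edgeR adjusted p = 7.9e-05, SE 0.185), and Ccl4, a chemokine, from 5.89 ± 1.94 to 33.2 ± 9.53 CPM (log2 2.47, adjusted p = 0.000452, SE 0.291). Il2ra, a chain of the interleukin 2 receptor, fell from 3494 ± 248 to 1216 ± 196 CPM (log2 −1.52, adjusted p = 0.000264, SE 0.158), beside the fall of Ltb given above.

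**Figure D4:**
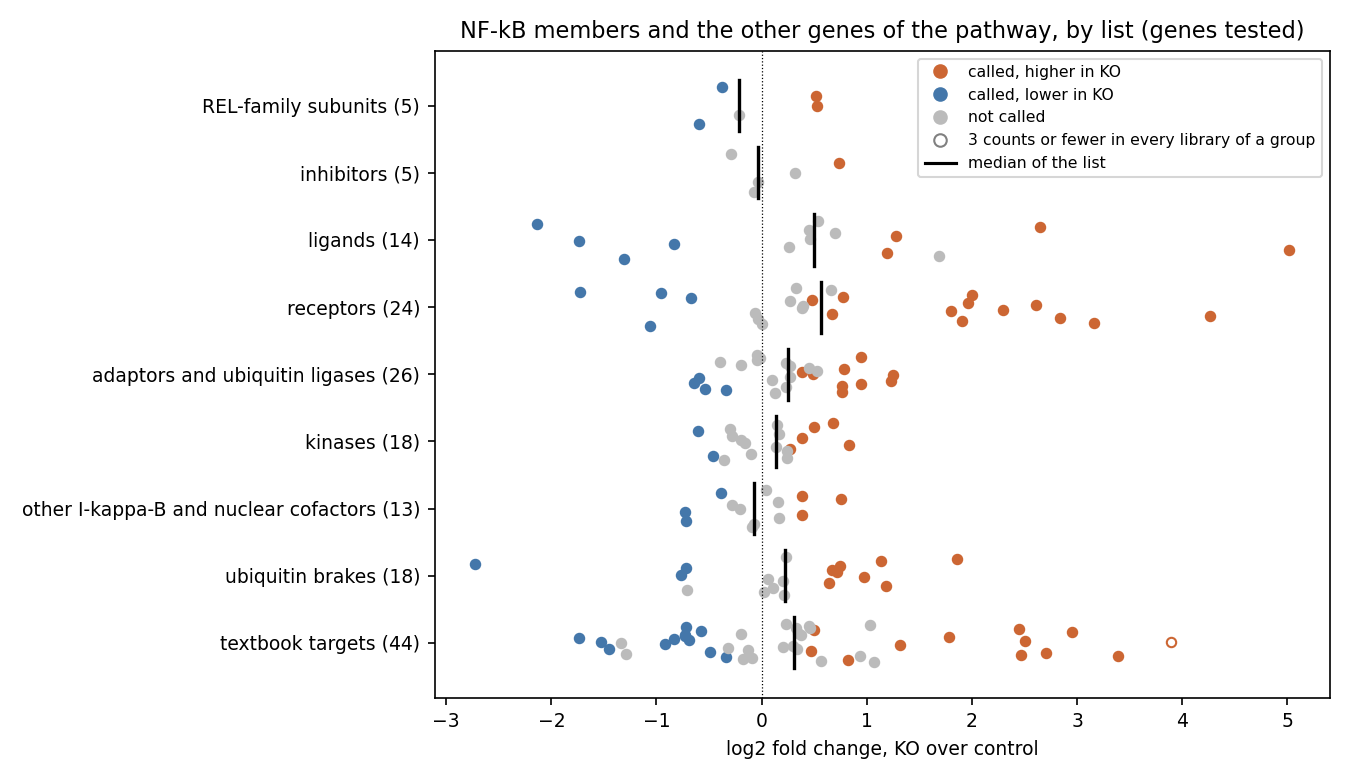
Log2 fold change (KO over control) of every tested gene in the 2 groups of members and the 7 pathway lists, with the number tested in brackets. Orange and blue points are called genes, grey points are not called, the open point (Il6) has 3 counts or fewer in every control library so that its fitted value is no bound, and the black bar is the median of the list, 0.57 for receptors and −0.22 for subunits.

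The genes whose profile over the 6 libraries was nearest to those of Nfkb1 and Nfkbiz were found by the root mean square difference of log2 CPM values after centring each gene on its mean. Among 9806 genes compared, those nearest to Nfkb1 were Meaf6 (0.08), Pcyt2 (0.088) and Ankrd13b (0.089). Those nearest to Nfkbiz were Rnf169 (0.059), Zfp182 (0.062) and Mlxip (0.069).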

How the data were processed

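The authors deposited whole-number read counts per gene symbol, 1 column per library, and the submitters' processing notes name STAR, featureCounts, DESeq2 and the build mm10. The annotation and strand setting are not given in the sources used here. Columns were matched to samples by description, groups were taken from titles, and 0 columns had no sample. Counts were scaled with TMM factors, genes were kept by filterByExpr, and KO was tested against control with edgeR's quasi-likelihood test (edgeR 4.0.16, R 4.3.3), adjusted over all 14268 genes tested by the Benjamini-Hochberg method, with a threshold of 0.05. The standard error is the absolute log2 fold change over the square root of F. The fit was tested on simulated data. The biological coefficient of variation was 0.212. Members and lists were chosen with earlier results of these data known. From each pathway list, the 2 largest increases and the 2 largest decreases were named, among called genes averaging 5 CPM or more, and other genes were chosen after their values were seen. Libraries with equal replicate numbers correlated in their deviations from the group means (0.270, 0.130 and 0.379). Those with unequal numbers ran from −0.39 to 0.204, the highest being control replicate 2 with KO replicate 1. The numbers were therefore read as a possible pairing only, which the main test did not use. Lengths, positions and 50-base sharing came from GENCODE M21 (GRCm38), promoters from RefSeq. Alternatives were other scalings (library size, upper quartile, DESeq2 1.42.0 size factors, TMM without the 50 most counted genes), no filter or a mean count of at least 10, DESeq2's test, limma-voom (limma 3.58.1), the replicate block, numbers 1 and 2 alone, and leaving out each library. Some genes of the lists are not reported here.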

Additional observations from a re-analysis of the deposited data

How the results depend on the processing

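Under all 16 alternatives the same count of members, 3 (Rel, Rela and Nfkbiz), was called higher. The count of members called lower, 2, fell to 0 with library size as the only scaling, where the median of all genes was 0.10, and ranged from 0 to 2 when 1 library was left out. With the replicate block it was 2, and the block changed no member's call. Nfkbia had a positive log2 fold change with library size only (0.014) and, when 1 library was left out, ranged from −0.255 to 0.074. Nfkbib was positive with library size only (0.055) and ranged from −0.201 to 0.091 when 1 library was left out, being positive without control replicate 2 (0.041) and KO replicate 2. Called pathway genes ran from 40 to 60 higher and from 19 to 28 lower over the alternatives. The cause of these changes was not tested. The members' counts were 711 or more in each library, and the part of depth was not tested.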

Other observations

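Within the adaptor list, the 3 genes of the ligase that builds linear ubiquitin chains can be set side by side (chosen after their values were seen). The catalytic subunit gene Rnf31 rose from 52.8 ± 4.37 CPM in control to 73.8 ± 3.47 CPM in KO (SD, n = 3) and was called by edgeR (log2 fold change 0.48 with an adjusted p of 0.00785). Sharpin rose from 30.5 ± 1.28 to 39.8 ± 2.66 CPM (0.38, adjusted p = 0.0273). Rbck1, whose KO libraries also lay above all control libraries, was not called (0.27, adjusted p = 0.0615).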
